A study of Mus musculus with 4 samples.

Results

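Metallothioneins are small cysteine-rich proteins that bind zinc and copper, and the transcripts of 3 of their genes, Mt1, Mt2 and Mt3, were followed here through coronal brain sections of mouse pups. They are 3 of the 19465 probe-targeted features counted in each section. The group was proposed because Mt2 had been called lower in the HF than in the MF sections in the hippocampus and the striatum, so the difference between the diets is given below as a description without a p-value, whereas levels over the section, which that choice did not use, were tested. The sections came from male wild-type C57BL/6J pups at postnatal day 21. Their mothers received a folic acid (FA) diet of 2 mg/kg (the MF group, labelled median folate, 2 sections) or 20 mg/kg (the HF group, 2 sections), beginning before mating and lasting until the pups were taken. The mothers were 8 weeks old according to the labels, and the methods give a range that starts at this age and reaches higher. All groups share the strain, the age and the genotype, and no gene was altered in any of them. The labels call the sections of a group replicates and the methods call them biological replicates, but litters are not named. So p-values for the diets measure the spread between these sections. In the area and surface comparisons section was a block, so their p-values measure the spread of areas or bands within these sections.

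In the brain, Mt1 and Mt2 are known chiefly from astrocytes and from the cells of the pial surface and the vessels, and both are switched on by zinc, copper, glucocorticoids and injury. Their induction by metals runs through the zinc-sensing factor MTF1, which binds short metal response elements upstream of the genes. Mt3, first described as a growth inhibitory factor, is the brain form, found in zinc-rich neurons and in astrocytes, and responds little to metals. Metallothioneins hold zinc and release it when their cysteines are oxidised, so that they link zinc supply with antioxidant defence.

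The 3 genes form a cluster with Mt4 within 43131 bases of chromosome 8 of GRCm38, all on the plus strand (GENCODE vM21). Mt3 (ENSMUSG00000031760) lies from 94152607 to 94154146, Mt2 (ENSMUSG00000031762) from 94172664 to 94173568, and Mt1 (ENSMUSG00000031765) from 94179082 to 94180327, so that 5513 bases separate Mt2 from Mt1. All are protein-coding. Levels of Mt1 and Mt2 followed each other over the sections more closely than that of Mt3, and the 250 bases before the RefSeq start of each gene (GRCm38.p6, plus strand, 5′ to 3′) are therefore shown side by side. Capitals mark matches, on either strand, to the core of the metal response element, searched as TGCACNC and TGCGCNC.
Mt1, chr8:94178839-94179088: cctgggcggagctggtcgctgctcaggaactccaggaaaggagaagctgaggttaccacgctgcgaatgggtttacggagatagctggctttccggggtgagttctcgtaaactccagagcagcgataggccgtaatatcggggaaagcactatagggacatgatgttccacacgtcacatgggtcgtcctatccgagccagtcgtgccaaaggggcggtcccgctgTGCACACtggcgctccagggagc
Mt2, chr8:94172368-94172617: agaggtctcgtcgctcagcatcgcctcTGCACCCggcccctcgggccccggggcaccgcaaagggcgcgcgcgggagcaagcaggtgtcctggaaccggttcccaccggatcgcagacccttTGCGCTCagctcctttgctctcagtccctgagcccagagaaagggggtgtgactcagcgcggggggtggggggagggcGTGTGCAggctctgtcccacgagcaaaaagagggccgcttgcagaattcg
Mt3, chr8:94152357-94152606: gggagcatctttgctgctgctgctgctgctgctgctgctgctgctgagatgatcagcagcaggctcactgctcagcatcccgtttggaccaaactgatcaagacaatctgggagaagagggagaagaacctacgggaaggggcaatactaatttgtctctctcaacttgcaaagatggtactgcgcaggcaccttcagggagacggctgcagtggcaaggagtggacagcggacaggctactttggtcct

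The window of Mt2 held 3 matches, that of Mt1 held 1 and that of Mt3 held none. At least 1 match of either form was found in 21.4% of the 32851 promoter windows of this length in the table, and at least 3 in 1.26%. No matches overlapped each other. The antioxidant response element core TGACNNNGC matched once, from 79 to 71 bases before the start of Mt2, and was found in 10.2% of all windows. The core of a glucocorticoid response element, TGTTCT, found in 16.1% of all windows, was not in any of the 3. The choice of start changes these counts, because annotated transcripts also begin further in. Before the GENCODE starts of Mt1 at 94179211 and 94179241 there were 5 metal response cores within 250 bases, before that of Mt2 at 94172860 there were 4, and before that of Mt3 at 94152746 there were 3. The antioxidant core matched 1 time before each of these starts of Mt1, and not before these starts of Mt2 and Mt3. A match is only a string of letters and was not tested for binding.

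Section totals ranged from 34983708 to 90098381 unique molecular identifiers (UMIs). Between 3197 and 3598 spots per section passed a minimum of 500 UMIs and 250 genes. The deepest section was MF replicate 1. Since all slides carry the same spot barcodes, 2472 barcodes occurred in all 4 sections. Levels are given as CPM, the UMIs of a gene scaled to a total of 1000000 UMIs in the same spots. As they were measured with probes, levels were not compared between genes. The list of 10 neuronal genes summed to between 7430.5 and 7727 CPM, and none of them was at 0. A median spot held from 8 to 24 UMIs of Mt1, from 3 to 12 of Mt2 and from 12 to 33 of Mt3. Spots without any Mt2 UMI made up 0.083% of MF replicate 1 and 9.48% of HF replicate 1, a share that follows depth as well as level. A spot covers several cells, so fewer cells of a type and less RNA per cell cannot be told apart.

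Mt1 and Mt2 had similar maps in all 4 sections. Both were high in a curved band through the hippocampus and in places along the outer edge of the section, and low in cortical tissue. Mt3 was spread more evenly, with a broad zone of high values over the hippocampus. Spots were grouped by expression with the 3 genes left out, which gave 14 areas, of which 10 could be named from marker genes fixed for this work. The other 4 are called by genes picked from among their leading genes. How strongly neighbouring spots resembled each other was read from Moran's I, a score deposited with the Space Ranger output, which for Mt1 was 0.253 and 0.196 in MF and 0.140 and 0.243 in HF. These values placed Mt1 among the highest 2.44% to 6.30% of scored features, Mt2 among the highest 2.94% to 9.62%, and Mt3 among the highest 3.54% to 6.03%.

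**Figure D1:**
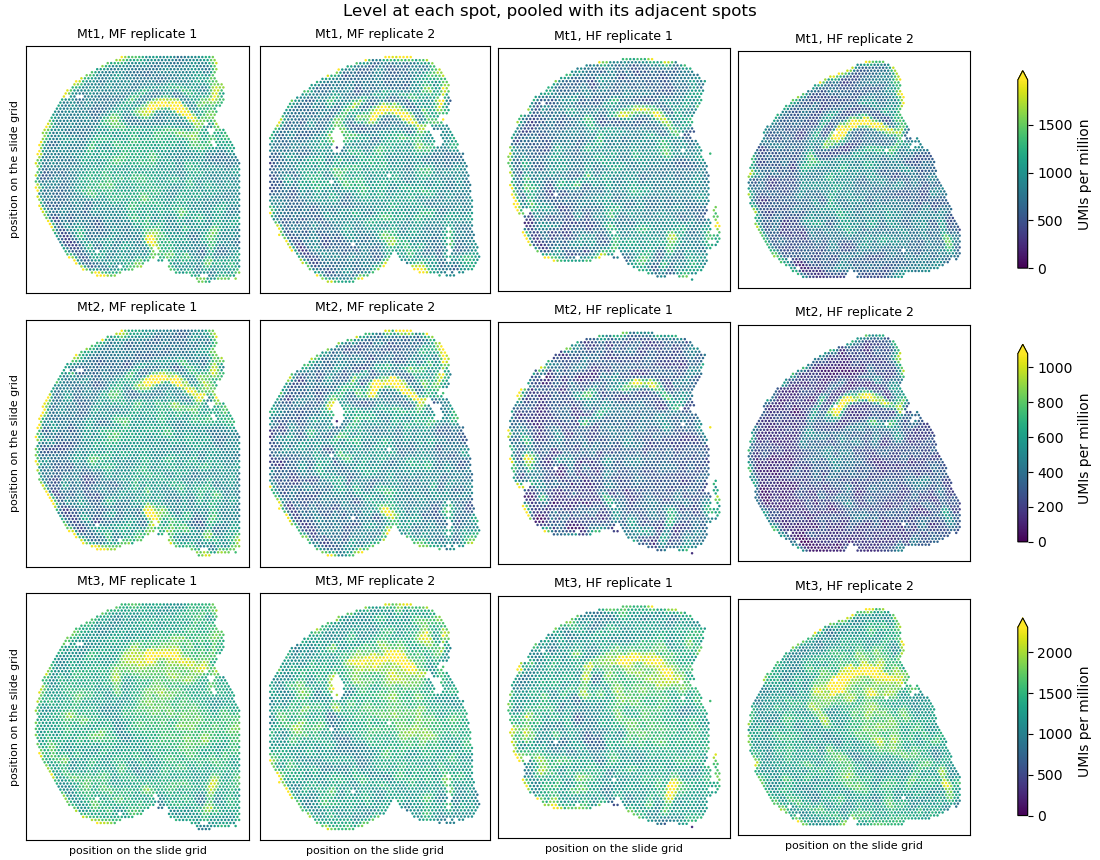
Level at each spot in CPM, pooled with its adjacent spots, for Mt1, Mt2 and Mt3 (rows) in the 4 sections (columns); both axes are positions on the slide grid and the colour scale stops at the 99th percentile of each gene. Mt1 and Mt2 show a bright arc in the hippocampus and a bright rim, Mt2 is darker in both HF sections, and Mt3 looks alike in all 4.

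Spots led by Ndnf, with Reln also among their leading genes (the Ndnf and Reln spots), had the highest Mt1 of the 14 areas. Both are genes of interneurons and Cajal-Retzius cells. In these spots, though, summed neuronal genes were at 0.90 times and astrocyte genes at 1.84 times the level of the whole section. No area was led by Ndnf in the other clusterings tried. With fewer, larger clusters the meninges held 1249 spots, against 385 in the main clustering. Results for the Ndnf and Reln spots were therefore not checked under another clustering. Mt1 in the Ndnf and Reln spots was 1720.1 and 1830.0 CPM in MF and 1439.8 and 1707 CPM in HF. Meninges spots, named from fibroblast and pial genes, came next with 1611 and 1493 CPM in MF and 1236 and 1337 CPM in HF. In cortex spots Mt1 was 857 and 754 CPM in MF and 707 and 607 CPM in HF, below both of those areas in all 4 sections. Only spots led by Lnp1, with Cyp26b1 and Lmo3 also among their leading genes (the Lmo3 and Cyp26b1 spots), were lower still in their mean. They held 719 and 672 CPM in MF and 578 and 477 CPM in HF.

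Compared with the mean of the other named areas, Mt1 was 1.39-fold higher in meninges (log2 0.48, SE 0.05, adjusted p = 3.6e-12, edgeR) and 1.21-fold higher in white matter (log2 0.27, SE 0.05, adjusted p = 3.4e-06). In cortex it was lower at 0.740 of that mean (log2 -0.43, SE 0.05, adjusted p = 3.0e-11). In the Ndnf and Reln spots it stood 1.68-fold above the named areas (log2 0.75, SE 0.05, adjusted p = 4.2e-19). Such differences were common among all genes, as 25% of 13068 genes tested were called in meninges, 33.1% in white matter, 50% in cortex and 14.9% in the Ndnf and Reln spots, called meaning an adjusted p under 0.05 and at least 1.2-fold. Of the 10 named areas, Mt1 was called higher in 2 and lower in 1. The cortex call was lost when only spots surrounded by their own area were kept (log2 -0.14, adjusted p = 0.25).

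Mt2 had the same areas at the top and at the bottom of its order. In the Ndnf and Reln spots it was 974 and 971 CPM in MF and 635 and 659 CPM in HF, and in meninges 931 and 846 CPM in MF and 593 and 589 CPM in HF. Cortex held 419.9 and 376 CPM in MF and 294 and 196 CPM in HF. Levels in the upper areas and in cortex did not overlap even across diets. The ratio to the other named areas was 1.58-fold in meninges (log2 0.66, SE 0.06, adjusted p = 1.0e-13), 1.74-fold in the Ndnf and Reln spots (log2 0.80, SE 0.07, adjusted p = 1.3e-15) and 1.21-fold in white matter (log2 0.27, SE 0.06, adjusted p = 1.4e-04). It was 0.690 in cortex (log2 -0.53, SE 0.06, adjusted p = 1.6e-11) and 0.829 in hypothalamus (log2 -0.27, SE 0.06, adjusted p = 1.9e-04), where 36% of genes were called. As for Mt1, the cortex call was not kept among interior spots (log2 -0.24, adjusted p = 0.22).

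Further down the order neighbouring areas lay closer together. Medial habenula was above white matter for Mt1 and for Mt2 in all 4 sections, with mean levels of 1152 ± 131 and 1099 ± 129 CPM for Mt1 (SD, n = 4). Between white matter and the spots led by Six3 and Pvalb, Mt1 was higher in white matter in 2 of the 4 sections. For Mt2 the thalamus, hypothalamus, striatum and choroid plexus had means from 377 to 425 CPM with SDs from 126 to 158 CPM. These SDs include the difference between the diets, so the order was read within sections. Thalamus was above hypothalamus in 3 of the 4 sections, hypothalamus above striatum in 2, and striatum above choroid plexus in 1. Choroid plexus values rest on 8 to 12 spots per section, and those of ependyma on 31 to 163.

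**Figure D2:**
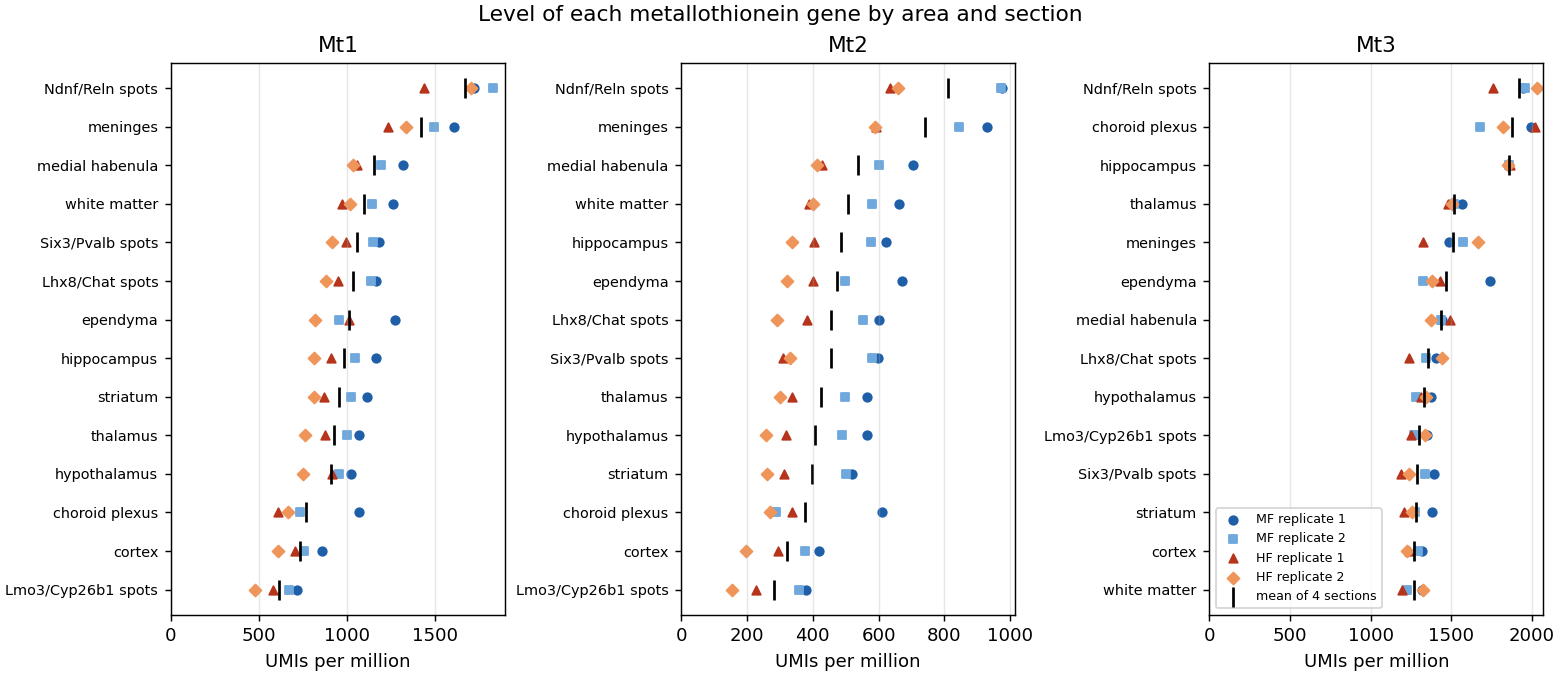
CPM (x axis, from 0) of Mt1, Mt2 and Mt3 in each of the 14 areas (y axis, ordered by mean), with a symbol for each section and a black tick at the mean of the 4. MF symbols lie to the right of HF symbols in nearly every area for Mt2 and for Mt1, and the symbols of Mt3 in hippocampus fall almost on each other, from 1855 to 1864.

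Mt3 had another order. It was highest in the Ndnf and Reln spots (1947 and 1958 CPM in MF, 1762 and 2031 CPM in HF), in choroid plexus (1994 and 1678 CPM in MF, 2018 and 1823 CPM in HF) and in hippocampus, where the sections were within 1855 to 1864 CPM. These 3 areas could not be ranked among themselves. White matter was lowest in its mean with 1321 and 1229 CPM in MF and 1197 and 1323 CPM in HF, and cortex, striatum and white matter overlapped. Against the other named areas Mt3 was called higher in hippocampus (1.32-fold, log2 0.40, SE 0.04, adjusted p = 1.1e-11, 40.8% of genes called) and in choroid plexus (1.56-fold, log2 0.64, SE 0.05, adjusted p = 4.1e-17, 46.2% of genes called), and called lower in none of the 10. The hippocampal value was 0.26 with fewer, larger clusters (Leiden resolution 0.5), just under the fold threshold, and in choroid plexus the call was lost among interior spots (log2 0.34, adjusted p = 0.68). The choroid plexus value also depends on scaling, since TMM and library size moved the median of all genes by 0.24 on the log2 scale there, and with library size alone it was 0.40. Scaling by library size also shifted the median of all genes by 0.12 in meninges and 0.13 in ependyma.

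Within the hippocampus Mt1 and Mt2 were layered. A cluster of 570 spots led by Cabp7, Thbs4 and Krt73 held 1739.6 and 1633 CPM of Mt1 in MF and 1425 and 1399.5 CPM in HF. The 124 spots led by Spink8 and Fibcd1, markers of the CA1 pyramidal layer, held 692 and 448 CPM in MF and 491 and 370.1 CPM in HF. Spots led by Ccbe1 and Il16, with the CA2-3 marker Ptgs2, had 745 and 539.5 CPM in MF and 513 and 489.9 CPM in HF, and those led by Dsp and C1ql2, markers of the dentate gyrus, had 1110.4 and 924 CPM in MF and 875 and 781 CPM in HF. In each section the first cluster was above the others, and all its values were above all of theirs.

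Mt2 was layered in the same way, from 903 and 917 CPM in MF and 684 and 638 CPM in HF in the Cabp7 cluster to 354 and 227 CPM in MF and 199.6 and 117 CPM in HF in the CA1 cluster. Mt3 differed less, with 2057 and 2088 CPM in MF and 2063 and 2180.5 CPM in HF in the Cabp7 cluster and 1569, 1534, 1507 and 1546 CPM in the CA1 cluster of MF replicates 1 and 2 and HF replicates 1 and 2. Its highest value in the CA1 cluster was below the lowest in the other 3 clusters, whereas the CA2-3 and dentate gyrus clusters overlapped. These layers are a description and were not tested. Across the named cortical layers, 2-3 to 6, the means of Mt1 ran from 707 CPM in layer 6 to 739.9 CPM in layer 5. Layer 1 was not among the named layers. Single sections differed in direction. Layer 2-3 held 934 and 661 CPM in MF and 662 and 581 CPM in HF, and layer 6 held 823 and 746 CPM in MF and 689 and 570 CPM in HF. Mt3 was lower in all 4 sections in layer 4 (1125 ± 49.7 CPM) than in layer 5 (1334 ± 57.8 CPM, SD, n = 4).

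Over the 22 areas and subareas, the profile of Mt1 was most like that of Mt2 among 8451 genes of at least 20 CPM (Pearson r = 0.971 of log2 levels). Next came Tst, a mitochondrial sulfurtransferase (r = 0.947), Gja1, the astrocyte gap junction protein connexin 43 (r = 0.939), Hepacam, a glial adhesion protein (r = 0.901), and the astrocyte water channel Aqp4 (r = 0.900). For Mt2 the list was Mt1, Gja1 (r = 0.941), Tst (r = 0.927), the receptor Notch1 (r = 0.897) and Lcat, which esterifies cholesterol (r = 0.896). Mt3 was most like Znrf2 (r = 0.826), the transcription factor Zbtb20 (r = 0.817), Dsp (r = 0.809), Dars (r = 0.805) and Nhsl1 (r = 0.800), and its r with Mt1 was 0.166. All points come from the same 4 libraries and subareas lie within areas, so these values are descriptions.

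Markers of other cell types moved with Mt1 and Mt2 over the areas. The list of 19 measured astrocyte genes, which held Gja1 and Aqp4, summed to 6572 CPM over whole sections. Its level was 1.84 times as high in the Ndnf and Reln spots and 1.77 times as high in meninges, and its log2 sum had an r of 0.88 with Mt1, 0.873 with Mt2 and 0.205 with Mt3 over the 14 areas. In the Ndnf and Reln spots microglia genes were at 1.93 times, vessel genes at 1.86 times and blood genes at 2.17 times the level of the whole section, and the r of the microglia list with Mt1 was 0.728. In meninges vessel genes were 3.28 times and blood genes 4.35 times the level of the whole section. Their part in the area differences was not tested. Between single spots thinned to 5000 UMIs, Mt1 and the astrocyte list had r from 0.317 to 0.345 within sections, with a median of 4 to 5 UMIs of Mt1 in a spot.

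Levels were also compared by distance from the surface, taken from spot positions alone. Of the 822 spots touching the surface, 34.5% were Ndnf and Reln spots and 25.9% meninges. Mt2 there was 961 and 744 CPM in MF and 514 and 439 CPM in HF, against 536 and 494 CPM in MF and 343 and 282 CPM in HF in spots 5 or more grid steps in. Each section was higher at its surface, by 1.49-fold in the fit (log2 0.57, SE 0.05, adjusted p = 1.9e-09, edgeR with section as a block). Mt1 was 1608 and 1369.7 CPM in MF and 1194 and 1064 CPM in HF at the surface, 1.33-fold the deep level (log2 0.41, SE 0.04, adjusted p = 2.8e-08). Mt3 was 1593 and 1445 CPM in MF and 1518 and 1522 CPM in HF at the surface, against 1475 and 1449 CPM in MF and 1441 and 1440.3 CPM in HF farther in. It did not pass the test (log2 -0.03, SE 0.03, adjusted p = 0.41), and its sign depends on the scaling, being 0.067 on the log2 scale with library size alone, where the median of all genes moved by 0.10. Of all 13207 genes, 30.6% were called in this comparison.

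**Figure D3:**
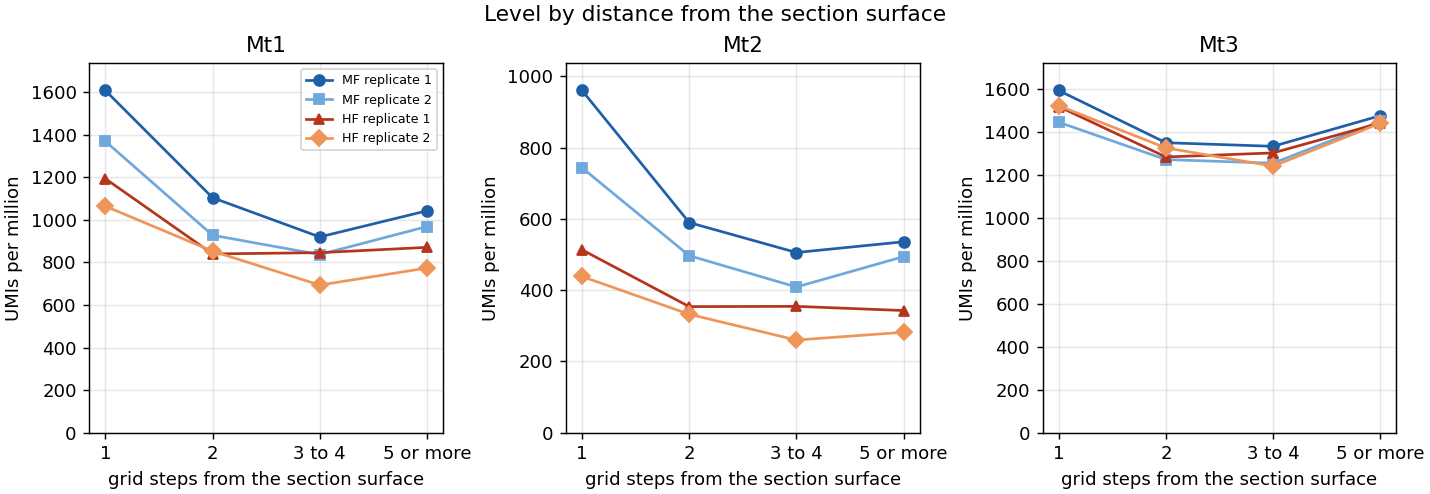
CPM (y axis, from 0) of Mt1, Mt2 and Mt3 by distance from the section surface in grid steps (x axis), with a line for each section. All 4 lines of Mt1 and Mt2 are highest at the surface and lower from the second step on, whereas the Mt3 lines lie close together and are lowest between 2 and 4 steps.

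The comparison of HF with MF asked whether offspring of mothers on the excess FA diet differed in these genes. Over the whole section Mt2 was 549 and 496 CPM in MF replicates 1 and 2 and 354 and 290.0 CPM in HF replicates 1 and 2. Both HF sections were below both MF sections, and the HF mean was 61.6% of the MF mean (log2 -0.71, SE 0.11, n = 2 sections per group). Mt1 was 1053 and 970.4 CPM in MF and 883 and 783 CPM in HF, again without overlap, and its HF mean was 82.3% of the MF mean (log2 -0.29, SE 0.08). Mt3 was 1461 and 1415 CPM in MF and 1418 and 1413 CPM in HF, where the groups overlapped, at 98.4% (log2 -0.03, SE 0.06). Of 14971 genes tested over the whole section, 0% were called by edgeR, with 1020 at an unadjusted p under 0.05 and 22 called by DESeq2. As the members were chosen on this contrast, nothing is read from their place among these genes.

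Area by area, the lower Mt2 was seen throughout the section. All areas are parts of the same sections, and Mt2 was chosen on this contrast. Counts over areas, for Mt1 as well, therefore largely repeat the whole-section difference and are not independent support for it. In 13 of the 14 areas both HF sections were below both MF sections, the exception being choroid plexus, and the HF mean was between 51.7% and 67.6% of the MF mean, with a median of 61.7%. In hippocampus Mt2 was 622 and 576 CPM in MF and 403 and 338 CPM in HF (log2 -0.69, SE 0.10). In striatum it was 520.1 and 502 CPM in MF and 313 and 262 CPM in HF (log2 -0.85, SE 0.12). These are the 2 areas whose calls led to the choice. Elsewhere the separation was as clear in hypothalamus, with 565 and 489.7 CPM in MF and 318 and 258 CPM in HF (log2 -0.88, SE 0.14), and in thalamus, with 564 and 498 CPM in MF and 338 and 301 CPM in HF (log2 -0.74, SE 0.10). The lowest ratio was that of the Lmo3 and Cyp26b1 spots, with 381 and 359.5 CPM in MF and 228 and 155 CPM in HF (log2 -0.96, SE 0.15).

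The share of all tested genes that edgeR called in these comparisons was 0.177% in hippocampus, 0.0524% in striatum, 0.0986% in cortex, 0.0714% in medial habenula, 0.0319% in white matter, 0.0165% in ependyma and 0.0135% in choroid plexus. It was 0% in hypothalamus, thalamus and meninges, where 719, 978 and 352 genes had an unadjusted p under 0.05 and DESeq2 called 2, 6 and 1. Mt1 was below MF without overlap in 13 of the 14 areas too, with ependyma the exception, and its HF mean lay between 70.8% and 88.6% of the MF mean. For Mt3 the ratio ranged from 88.9% to 105% with a median of 97.7%, and the HF sections were below the MF sections without overlap in 4 areas. In the 8 named subareas of cortex and hippocampus, again parts of the same sections, Mt2 did not overlap in any. Its ratio ranged from 55.3% in the olfactory and amygdala spots to 71.7% in the dentate gyrus. Mt1 did not overlap in 5 of the 8. It overlapped in the dentate gyrus, with 781 and 725 CPM in MF and 788 and 663 CPM in HF, in layer 2-3, with 934 and 661 CPM in MF and 662 and 581 CPM in HF, and in CA1, with 695 and 459.8 CPM in MF and 482 and 389.6 CPM in HF. The dentate gyrus subarea, of 86 spots, is another set than the cluster of 287 spots led by Dsp and C1ql2 above. In that cluster Mt1 did not overlap, with 1110.4 and 924 CPM in MF and 875 and 781 CPM in HF, so the reading for the dentate gyrus depends on how it is drawn. Mt3 was lower in HF without overlap in 4 of the 8 subareas, and higher without overlap in 1, the dentate gyrus. Its level there was 1860 and 1878 CPM in MF and 2112 and 1910 CPM in HF.

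**Figure D4:**
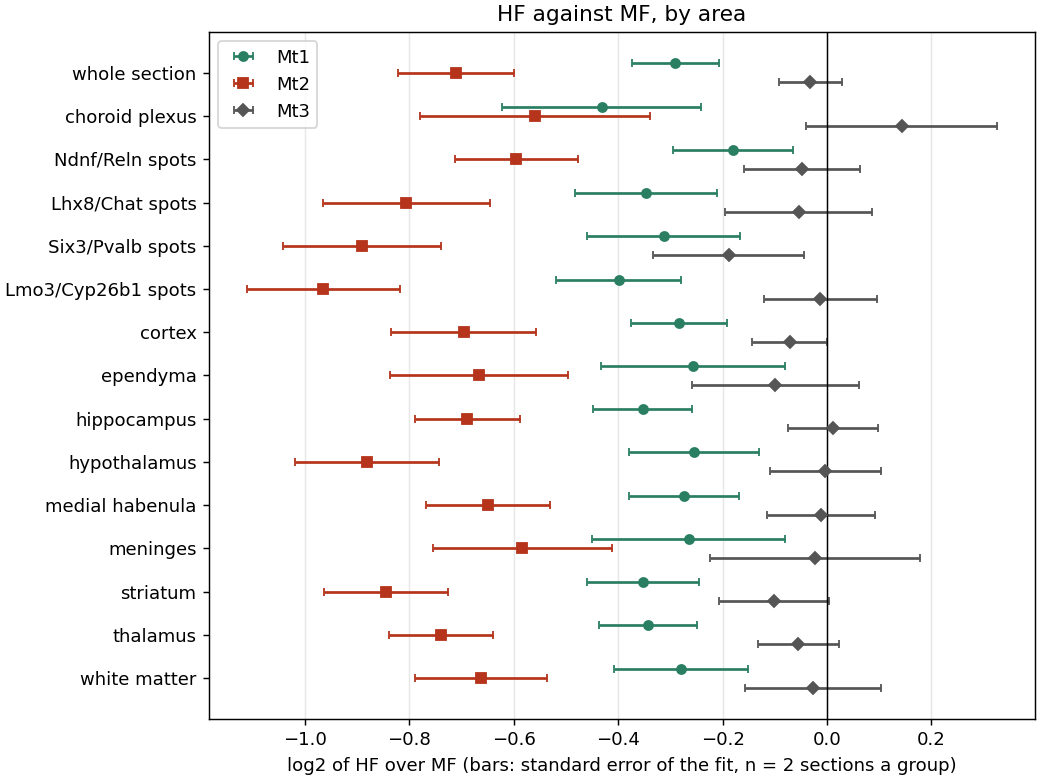
Log2 of HF over MF (x axis) for Mt1, Mt2 and Mt3 over the whole section and in each area (y axis), with bars for the standard error of the fit over 2 sections per group. Mt2 lies farthest to the left in every row, from -0.96 to -0.56, Mt1 lies between it and 0, and Mt3 lies between -0.19 and 0.14.

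Leaving out sections did not turn Mt2 outside the choroid plexus. Without each section in turn, the log2 difference of Mt2 over the whole section ranged from -0.85 to -0.59. In choroid plexus it was -0.56 with all sections, and without MF replicate 1, whose 610 CPM stood apart from the other 3 sections at 270.4 to 337 CPM, it was 0.10. At the surface of the section the HF mean of Mt2 was 55.9% of the MF mean, and in spots 5 or more steps in it was 60.7%. With the surface spots left out, the log2 difference over the remaining section was -0.71.

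Mt2 differed more between the diets than Mt1, so the make-up of the pooled Mt1 and Mt2 counts shifted. Since Mt2 was chosen on this contrast, a lower share in HF follows in part from that choice and is given as a description. Mt2 made up 34.3% of Mt1 and Mt2 UMIs in MF replicate 1 (95% Wilson interval 34.0% to 34.5%) and 33.8% in MF replicate 2 (33.5% to 34.2%). In the HF sections it made up 28.6% (28.2% to 29.0%) and 27.0% (26.6% to 27.4%). The intervals cover counting error only and not the spread between sections. The share itself depends on how well each probe works, so that only its differences between sections are described. Over the whole section the 2 sections of each group were within a few points of each other. In single areas they could lie further apart, as in cortex (29.4% and 24.4% in HF) and choroid plexus (36.3% and 28.3% in MF, 35.6% and 28.9% in HF). In 13 of the 14 areas, all parts of these same sections, the HF sections were below the MF sections, with choroid plexus the exception. MF values in these 13 areas stayed between 31.8% and 36.6%, and HF values between 23.8% and 32.4%. Meninges had the highest mean share in both groups apart from the HF value of choroid plexus, 36.4% in MF and 31.5% in HF.

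**Figure D5:**
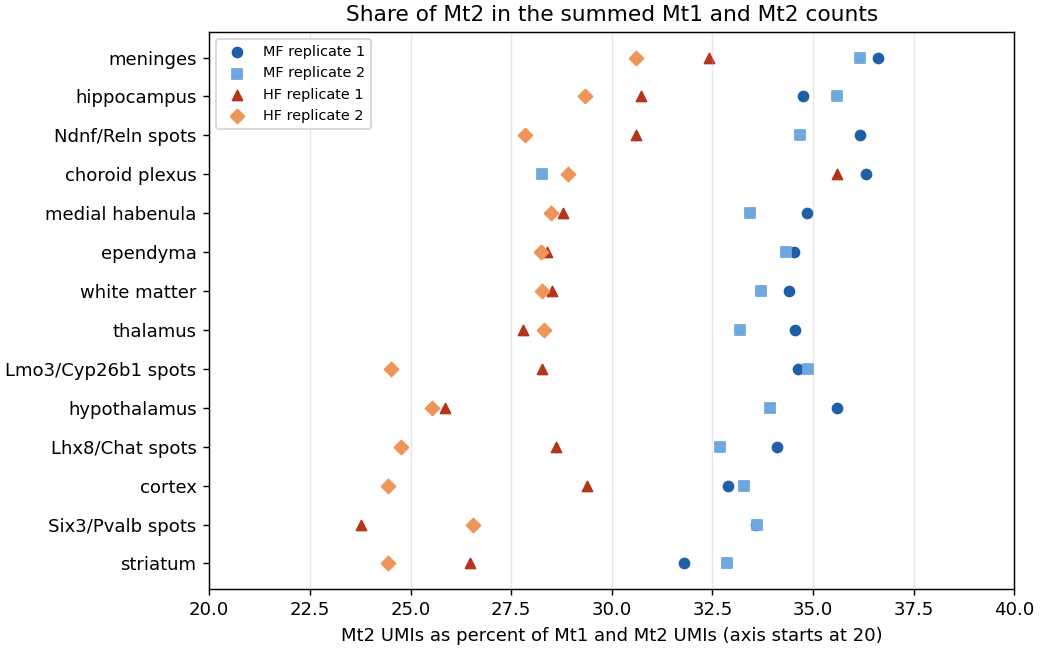
Mt2 UMIs as percent of Mt1 and Mt2 UMIs (x axis, starting at 20) in each area (y axis, ordered by mean), with a symbol for each section. Except in choroid plexus, the HF symbols lie to the left of the MF symbols in each area, with striatum lowest and meninges highest.

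The difference between the diets was also set side by side over cortex, hippocampus, thalamus, hypothalamus, striatum and white matter, as a description. For Mt2 the range of the 6 log2 differences was 0.24, with the larger differences in hypothalamus and striatum. With HF replicate 1 left out it was 0.38, and with HF replicate 2 left out 0.31. For Mt1 the range was 0.09, and 0.20 without HF replicate 1, and for Mt3 it was 0.13, and 0.20 without MF replicate 2. So the size of each range depended on single sections. Over all 13591 genes, edgeR called 0.0441% for an area by diet difference, and nothing is read from this for the 3 genes.

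Genes that share tasks with metallothioneins were read from 5 lists holding 98 genes, of which 89 could be tested over the whole section. Of these, 0 were called there by edgeR and 0 by DESeq2, and 5 had an unadjusted p under 0.05. Their median log2 difference was 0.00 and that of all genes was also 0.00. Over the whole section and the 10 named areas there were 2 calls, Per1 in cortex, where 0.0986% of all genes were called, and Trf in hippocampus, where 0.177% were. Leaving out HF replicate 1 gave 38 calls and leaving out HF replicate 2 gave 27. In these fits the lone HF section is assumed to vary as the MF sections do.

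Among the 22 tested zinc transporters and their regulators, none was called in any area, where the share over all genes was at most 0.177%, and the median log2 difference was -0.03 over the whole section. The exporters with the highest levels were Slc30a9, a mitochondrial one (208 and 217 CPM in MF, 232 and 224 CPM in HF) and Slc30a3, which loads zinc into synaptic vesicles (131 and 143 CPM in MF, 141 and 132 CPM in HF). The importers Slc39a7 (84.6 and 73.0 CPM in MF, 74.4 and 97.0 CPM in HF) and Slc39a10 (82.4 and 77.9 CPM in MF, 80.4 and 82.8 CPM in HF) overlapped between the groups. Slc30a1, the plasma membrane zinc exporter that MTF1 also switches on, was singled out after its values were seen. It was 80.0 and 81.7 CPM in MF and 69.8 and 67.0 CPM in HF, without overlap, but was not called (log2 -0.25, SE 0.07, adjusted p = 0.70). The list's regulator Mtf1 had a log2 difference of 0.13 (SE 0.10, adjusted p = 0.79).

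Of 17 copper and iron genes tested, 1 was called lower in hippocampus, against 0.177% of all genes called there in either direction. This was Trf, the iron carrier transferrin, which oligodendrocytes make, with 255 and 277 CPM in MF and 158 and 181 CPM in HF (log2 -0.63, SE 0.10, adjusted p = 0.033). The summed list of 15 white matter genes moved with it there, with 16958 and 16351 CPM in MF and 11632 and 10805 CPM in HF, and its part in this result was not tested. The median of the list over the whole section was 0.03, and Fth1, the ferritin heavy chain, was 2362 and 2396 CPM in MF and 2076 and 2556 CPM in HF. Atox1, a copper chaperone, was 94.3 and 102 CPM in MF and 121 and 115 CPM in HF (log2 0.26, SE 0.08, adjusted p = 0.70). None of the 26 tested glutathione and antioxidant genes was called in any named area, with a median of -0.01. The superoxide dismutases Sod1 (377 and 333 CPM in MF, 314 and 427 CPM in HF) and Sod2 (269 and 266 CPM in MF, 282 and 293 CPM in HF) led the list in level, followed by the peroxiredoxin Prdx5 (244 and 237 CPM in MF, 265 and 270.4 CPM in HF).

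Glucocorticoids raise Mt1 and Mt2, and 17 genes that respond to them were tested beside them. Per1, which is also a repressor of the circadian clock, was called higher in cortex, where 0.0986% of all genes were called, with 54.4 and 51.2 CPM in MF and 81.8 and 80.7 CPM in HF (log2 0.63, SE 0.09, adjusted p = 0.016). No other gene of the list was called in a named area. Its median log2 difference over the whole section was 0.09 against 0.00 for all genes, and the list summed to 845 and 804 CPM in MF and 870.4 and 895 CPM in HF. Klf9, a transcription factor induced by the hormone, was 161 and 142 CPM in MF and 164 and 181 CPM in HF, and the receptor Nr3c1 was 107 and 105 CPM in MF and 112 and 97.2 CPM in HF. Of the neighbours of the metallothionein genes, 7 of 9 could be tested and none was called, with a median of 0.02. Gnao1, a G protein subunit, was 427 and 411 CPM in MF and 438 and 431 CPM in HF.

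The cell marker lists were set beside the difference in Mt2 and Mt1. Astrocyte genes summed to 6604 and 6554 CPM in MF and 6923 and 6208 CPM in HF, with the MF values inside the HF range, and none of the 19 genes was called by edgeR in any area. In some areas the list leaned lower in HF, with 17 of 19 fitted differences below 0 in hippocampus (median log2 -0.17), 17 in cortex (-0.16) and 16 in striatum (-0.18), where the median of all genes was 0.00. In other named areas it leaned less or the other way. Of the 19, 15 were below 0 in medial habenula (-0.05), 14 in choroid plexus (-0.15) and 11 in white matter (-0.07). In thalamus 11 were (-0.01), in hypothalamus 10 (-0.02), in meninges 7 (0.10) and in ependyma 6 (0.07). The sum of the list in striatum was 6239 and 6320 CPM in MF and 6204 and 5942 CPM in HF, without overlap, and in hippocampus the groups overlapped. There the HF mean was 88.6% of the MF mean for microglia genes, 87.5% for vessel genes and 73.0% for blood genes, all with overlapping groups. Microglia genes did not overlap in cortex, at 91.9% of the MF mean, nor in striatum, at 109%. Within the list, Gfap, the intermediate filament of reactive and fibrous astrocytes, was 177 and 200.2 CPM in MF and 143 and 132 CPM in HF, without overlap, and was not called (log2 -0.46, SE 0.09, adjusted p = 0.70). Gfap was singled out after its values were seen. The list as a whole did not move with it, as 10 of the 19 fitted differences over the whole section were below 0, with a median of -0.0051. Microglia genes summed to between 525 and 554 CPM, vessel genes to between 494 and 584 CPM and neuronal genes to between 7430.5 and 7727 CPM, over whole sections, all with overlapping groups. Blood genes overlapped as well, with 2266 and 1284 CPM in MF and 2203 and 1404 CPM in HF. The white matter list did not overlap, with 27641.5 and 28814 CPM in MF and 22792 and 24635 CPM in HF. Neither did the choroid plexus list (2478 and 2335 CPM in MF, 3472 and 3836 CPM in HF) nor the ependyma list (79.6 and 79.6 CPM in MF, 108 and 99.1 CPM in HF). The part of these lists in the lower Mt1 and Mt2 was not tested.

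Other features also set the HF sections or single sections apart. Of 18 immediate early genes, which neurons switch on within minutes of activity or handling, 17 had a fitted difference above 0 over the whole section, with a median of 0.50 on the log2 scale. In cortex 7 of them were called higher, Nr4a3, Egr4, Egr2, Dusp6, Fos, Nr4a1 and Egr1, against 0.0986% of all genes called there. In hippocampus 5 were called higher, Nr4a3, Egr4, Arc, Nr4a1 and Egr1, against 0.177%. Egr1 was 49.1 and 58.0 CPM in MF and 156 and 340 CPM in HF. Peptide genes of single hypothalamic nuclei were uneven between sections. Oxt was 0.699 and 4.10 CPM in MF and 1.201 and 638 CPM in HF, and Pmch was 688 and 497 CPM in MF and 321 and 0.706 CPM in HF. Both genes therefore set HF replicate 2 apart from the other sections. Without that section the difference of Mt2 over the whole section was -0.59 on the log2 scale, and without HF replicate 1 it was -0.85. The part of these differences in the lower Mt1 and Mt2 was not tested.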

How the data were processed

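Visium-FFPE counts of 4 coronal sections (2 MF, 2 HF) were used. The deposited files hold raw UMI counts, whole numbers without normalization, of 19465 features per spot, which the authors made with Space Ranger 2.0.0 on mm10, per the file headers and the labels. The Moran's I score comes from the deposited Space Ranger table. Seurat, which the labels also name, played no part here.

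Spots under 500 UMIs or under 250 genes were dropped. The others were clustered on 2000 variable genes scaled within sections (30 principal components, 20 neighbours, Leiden at resolution 1, with leidenalg 0.10.2, scikit-learn 1.9.0 and igraph 0.11.9), and 157 features, among them Mt1, Mt2, Mt3 and the pathway, astrocyte and blood lists, were kept out. A cluster took the class with most markers among its 50 leading genes, with at least 3 needed. Doublet calling does not apply to spots. UMIs were summed per section and area, since spots of a section are not replicates, and fitted by edgeR 4.0.16 (R 4.3.3) using its quasi-likelihood method, TMM and filterByExpr. Area, surface and area by diet fits had section as a block. Calls needed a fold of at least 1.2 and a p under 0.05 after Benjamini-Hochberg adjustment. The surface is any gap of at least 20 grid positions. CPM values carry no TMM factor, so their ratios can differ slightly from the fitted ones. The kinds of fit were tested on simulated data.

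The members and lists were chosen with earlier results of these data known. Named genes are the 3 members, the 5 genes most like each over areas, the called genes of a list or else up to 4 of its highest level, and area markers. Alternatives were DESeq2 1.42.0, library size alone, no filter on low counts, spots thinned to 5000 UMIs, spots of at least 1000 UMIs and 500 genes, interior spots, Leiden resolution 0.5, genes scaled over all spots, surface spots left out, cortical spots only or gaps of at least 50 positions for the surface, a replicate block, and leaving out 1 section at a time. The members left in the clustering and a crossed pairing were added after seeing the data.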

Additional observations from a re-analysis of the deposited data

How the results depend on the processing

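Of 172 alternative fits of HF against MF for each gene, over the whole section and the named areas, Mt2 was below 0 in 171 and Mt1 in 170. The exceptions were Mt2 in choroid plexus without MF replicate 1 (0.10) and Mt1 in ependyma at Leiden resolution 0.5 (0.04) and with genes scaled over all spots (0.14). All these fits reuse the same sections, and the members were chosen on this contrast. The counts of signs are therefore not replication, and describe only how far the sign depended on the processing. With a section left out, the whole-section log2 difference ranged from -0.85 to -0.59 for Mt2, from -0.37 to -0.22 for Mt1, and from -0.058 to -0.0047 for Mt3. Mt3 at the surface, -0.03 with all sections, was 0.067 with library size alone and 0.056 with thinned spots, and ranged from -0.041 to 0.00087 with a section left out. Calls of area differences were lost among interior spots for Mt1 in cortex (-0.14), Mt2 in cortex (-0.24) and Mt3 in choroid plexus (0.34, adjusted p = 0.68), and for Mt3 in hippocampus at Leiden resolution 0.5, where the ratio of 0.26 was just under the fold threshold. The cause of these changes was not tested.

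The count of pathway genes called, 2 with all sections, was 9 with no filter on low counts, 1 with thinned spots and 6 with the replicate block, and ranged from 2 to 38 with a section left out. The replicate numbers are not stated to pair sections, and the difference of replicate 1 from 2 in MF had a correlation of -0.16 with that in HF over 14971 genes. With the replicate block, Mt2 over the whole section was -0.71. Among all genes the block raised the calls from 13 to 26 in cortex, 0 to 49 in thalamus, 2 to 114 in ependyma, 0 to 24 in meninges, 6 to 11 in striatum, 4 to 7 in white matter and 1 to 6 in choroid plexus, whereas DESeq2 called 16 in ependyma, 3 in medial habenula, 3 in striatum, 2 in white matter and 0 in choroid plexus. Pairing the sections crosswise gave 9 pathway calls and 11 calls among all genes over the whole section, against 0 with the numbers of the labels as a block, and 209 in thalamus, 129 in hippocampus, 82 in cortex and 46 in medial habenula.

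With 2 sections per group the spread is poorly known, and it may be technical. MF replicate 1 was the deepest section. Thinning spots to 5000 UMIs, with spots below that left out, gave -0.73 for Mt2 over the whole section. Random thinning keeps the expected share of a gene, so it cannot show whether depth played a part, and this was not tested. Values for choroid plexus rest on few spots and are the least certain.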
